A study of Mus musculus with 12 samples.

Results

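The habenular neurons described here are 596 nuclei among 184957 retained nuclei (0.322%), read by RNA sequencing of single nuclei from dissected left hippocampus. A nucleus was taken as habenular when it held at least 1 UMI (unique molecular identifier, 1 counted RNA molecule) of the vesicular glutamate transporter genes Slc17a6 or Slc17a7, and at least 1 UMI in each of at least 2 of the 5 genes Gpr151, Chrnb4, Chrnb3, Pou4f1 and Tac2. It also had to hold no UMI of the GABA synthesis genes Gad1 and Gad2 and fewer than 2 of Mobp, a myelin gene. Of the 596, 384 held 2 of the 5 genes, 171 held 3 and 41 held 4 or more, so most lay at the lower edge of the rule. Another 1527 glutamatergic nuclei held exactly 1 of the 5 and were not members.

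The 12 libraries came from 12 female mice, 1 library per mouse, in 4 groups of 3. WT littermates were sampled at 6 months (replicates 3, 7 and 11) and at 12 months (replicates 4, 8 and 12). The 3xTg-AD mice carry the transgenes APPSwe and tauP301L on a mixed B6;129 background and were sampled at 6 months (replicates 1, 5 and 9) and at 12 months (replicates 2, 6 and 10). In this line the Thy1 promoter drives both transgenes in neurons. The mice were perfused with saline and the nuclei sorted by flow cytometry before capture.

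The habenula is a paired structure of the epithalamus that lies at the midline, close to the hippocampal tissue taken here. Its medial part holds glutamatergic neurons that also make acetylcholine or substance P and project to the interpeduncular nucleus, with nicotinic receptors built from the α3 and β4 subunits. Its lateral part is mostly glutamatergic and projects to the ventral tegmental area, the rostromedial tegmentum and the raphe.

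Total UMIs per library ranged from 79177051 to 128323908, and the median retained nucleus held 4345 to 6699 UMIs. In the 11 libraries with at least 10 habenular nuclei, the median habenular nucleus held 6299 to 9974 UMIs. Scrublet, which marks barcodes that look like a pair of nuclei, marked 21 of the 596 (3.52%) against 6.79% of all nuclei. No barcode was a member in more than 1 library, although 27 members (4.53%) carried a barcode that some other library also used. Replicate 9 of the 3xTg-AD mice at 6 months stood apart with 2 habenular nuclei, and no gene level is given for it.

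The label was checked against genes that the rule did not use. All 11 other genes listed as habenular were higher on average in habenular nuclei than in the 39479 other glutamatergic nuclei, 9 of them in each of the 11 libraries, with a median log2 ratio of 2.98. Of these other glutamatergic nuclei, 17787 counted as thalamic by their genes, so they do not stand for hippocampal neurons alone. The 1527 nuclei with exactly 1 of the 5 rule genes are also part of them. All 9 genes of the medial habenula list were above 0 (median 4.29), but this list holds the rule genes Tac2, Chrnb3 and Chrnb4. Its genes outside the rule are among the 11 above. Of the 6 genes of the lateral habenula list, 1 was above 0, the rule gene Gpr151, and 4 were lower in each library (median −1.33). No lateral gene outside the rule was higher on average. Because the rule asks mostly for medial genes, this balance was set in part by the selection. Levels are given as CPM, the UMIs of a gene per 1000000 UMIs summed over the nuclei of a population in a library. Over the 3971 genes that reached 50 CPM in either population, the median was −0.06 and 695 were higher in each library. These ratios, on the log2(CPM + 5) scale, are a description and carry no test, because the nuclei were picked on their own counts. None of 8664 oligodendrocyte nuclei held 2 or more of the 5 genes, which allows a share of up to 0.0346%, but these nuclei were shallower, with a median of 2517 to 3702 UMIs per library. Of 41637 inhibitory nuclei, with a median of 7075 to 10235 UMIs, 14 held 2 or more (0.0336%). Both kinds were picked to hold no UMI of Slc17a6 or Slc17a7. Droplets mixed with glutamatergic RNA in which either gene was found are thus left out of these shares. The summed level of the hippocampal pyramidal genes was 23.8 to 81.6 CPM in habenular nuclei and 40.0 to 114 in the other glutamatergic nuclei. That of the dentate granule genes was 11.9 to 88.8 against 87.5 to 155. Of these genes of the labelled tissue, 3 of 5 pyramidal and 3 of 4 dentate genes were lower in habenular nuclei in each of the 11 libraries. In contrast, 1 pyramidal gene, Fibcd1, was higher in each library. None of these genes was shown to be absent.

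Among the nicotinic acetylcholine receptor genes, Chrna3 and the rule genes Chrnb4 and Chrnb3 were high and the others were mixed. Chrna3, which encodes the α3 subunit and is no part of the rule, stood at 150 ± 47.9 CPM (SD, n = 11 libraries) in habenular nuclei and 1.82 in other glutamatergic nuclei. It was found in 56.2% of habenular nuclei, 1.17% of other glutamatergic nuclei and 0.162% of oligodendrocyte nuclei, which should lack it. The oligodendrocyte share leaves out droplets with a UMI of Slc17a6 or Slc17a7. By library, Chrna3 stood at 151, 141 and 147 CPM in WT at 6 months and at 137 and 47.6 in 3xTg-AD at 6 months. At 12 months it stood at 168, 178 and 166 in WT and at 139, 122 and 250 in 3xTg-AD. Replicate 5 of the 3xTg-AD mice, with 10 nuclei, held the lowest value, and the genotypes overlapped at 12 months. The rule genes Chrnb4 and Chrnb3, which encode the β4 and β3 subunits, stood at 69.5 ± 16.4 against 0.298 and at 119 ± 30.2 against 1.15. Of the 13 nicotinic subunit genes listed, 7 had a mean log2 ratio above 0, 3 were higher in each library and 4 lower in each, with a median log2 ratio of 0.03. The α7 gene Chrna7, a widely used brain subunit, was lower at 22.3 against 46.8, and Chrna1, Chrna2 and Chrna10 held no UMI in habenular nuclei.

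Chrna3 and Chrnb4 lie side by side on the minus strand of chromosome 9 in GRCm38, at chr9:55010111-55026562 and chr9:55028154-55048779, with Chrna5 on the plus strand beside them at chr9:54980880-55007779. Chrna5, the α5 subunit gene of the same cluster, reached only 1.76 CPM. Both a UMI of Chrna3 and one of Chrnb4 were found in 184 habenular nuclei (30.9%), a count that the use of Chrnb4 in the rule raises. The 250 bases before the start of Chrna3 are shown because it is the nicotinic gene of this profile that the rule did not use. They are from RefSeq on GRCm38.p6, chr9:55026563-55026812, read 5′ to 3′ on the minus strand, and capitals mark the GC box GGGCGG or its reverse complement CCGCCC.
Chrna3: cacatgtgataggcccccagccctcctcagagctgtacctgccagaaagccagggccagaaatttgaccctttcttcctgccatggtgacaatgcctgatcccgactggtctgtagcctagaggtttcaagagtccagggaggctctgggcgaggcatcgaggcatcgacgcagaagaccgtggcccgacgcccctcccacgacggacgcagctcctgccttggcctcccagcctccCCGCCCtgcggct
The window held 1 match, and 32.7% of 32851 RefSeq promoter windows of 250 bases held at least 1 on either strand.

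Genes of acetylcholine synthesis and uptake were high as well. Chat, the choline acetyltransferase gene, stood at 124 ± 33.2 CPM against 1.45 in other glutamatergic nuclei, and Slc5a7, the high affinity choline transporter gene, at 141 ± 39.9 against 2.23. Slc18a3, the vesicular acetylcholine transporter gene, was found in 29 nuclei (4.87%). At least 1 of these 3 genes was found in 365 nuclei (61.2%). Tac1, the substance P precursor gene, was found in 102 nuclei (17.1%), and only 16 nuclei (2.68%) held Tac1 together with a cholinergic gene. Tac2, the neurokinin B precursor gene and part of the rule, stood at 181 ± 45.4 against 2.54.

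Both vesicular glutamate transporter genes were read in these nuclei, of which the rule asked for at least 1 UMI of either. Slc17a6 and Slc17a7 were found together in 204 nuclei (34.2%), Slc17a6 alone in 192 (32.2%) and Slc17a7 alone in 200 (33.6%). Slc17a7 was found in 67.8% of habenular nuclei, 34.6% of other glutamatergic nuclei and 18.1% of thalamic nuclei. All of these had to hold a UMI of either gene, and the thalamic nuclei 1 of Slc17a6. The counts were taken to still hold ambient RNA, whose part in these shares was not tested. The level of Slc17a7 was 129 CPM against 70.8 in the other glutamatergic nuclei, a log2 ratio of 0.85, and that of Slc17a6 was 140 against 176, a log2 ratio of −0.32.

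Among the 3434 genes at 50 CPM or more in habenular nuclei, 127 had a mean log2 ratio of at least 2 with a higher level in each library. The largest ratio was that of Ano1, a calcium-activated chloride channel gene, at 714 CPM against 7.0 (log2 ratio 5.92). Nwd2, at 7400 ± 621 against 162, was found in 99.2% of habenular nuclei. Robo3, an axon guidance receptor gene, stood at 492 against 12.9, and Gfra1, a co-receptor gene for GDNF, at 1142 against 59.1. Syt9, a synaptotagmin gene of vesicle release, stood at 1897 against 135. Lrrc55, an auxiliary subunit gene of BK potassium channels, stood at 158 ± 24.4 against 5.38.

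Receptors and channels formed a mixed pattern. Kctd8, an auxiliary subunit gene of the GABA-B receptor, stood at 3282 ± 378 CPM against 155, and the receptor genes Gabbr1 (725 against 171) and Gabbr2 (1556 against 644) were higher too. Kctd16, another auxiliary subunit gene of the same receptor, went the other way, at 106 against 936 (log2 ratio −3.29). Of the 16 neuromodulator receptor genes, 6 had a mean log2 ratio above 0 and 4 were lower in each library, with a median of −0.80. The 6 include the rule gene Gpr151, whose direction the selection set. Those above 0 that are named here are the serotonin receptor genes Htr4 (367 against 77.4) and Htr5b (49.0 against 1.17), the substance P receptor gene Tacr1 (188 against 20.6), the orphan receptor gene Gpr139 (60.7 against 6.06) and the µ-opioid receptor gene Oprm1 (182 against 83.1). Of 12 pacemaker and calcium channel genes, 4 were above 0 and 7 were lower in each library. Cacna1e, the R-type channel gene, stood at 2016 against 492, whereas the P/Q-type gene Cacna1a stood at 113 against 723.

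Of the 11 transcription factor genes listed, a short list that includes the rule gene Pou4f1, 10 had a mean log2 ratio above 0, 9 of them in each library. Pou4f1, a POU factor gene of habenular and sensory neurons and part of the rule, stood at 105 ± 38.7 CPM against 1.80. Outside the rule, Nr4a2 stood at 187 against 11.4, Etv1 at 464 against 54.5, Zic1 at 285 against 41.8 and Irx2 at 45.0 against 4.28.

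**Figure D1:**
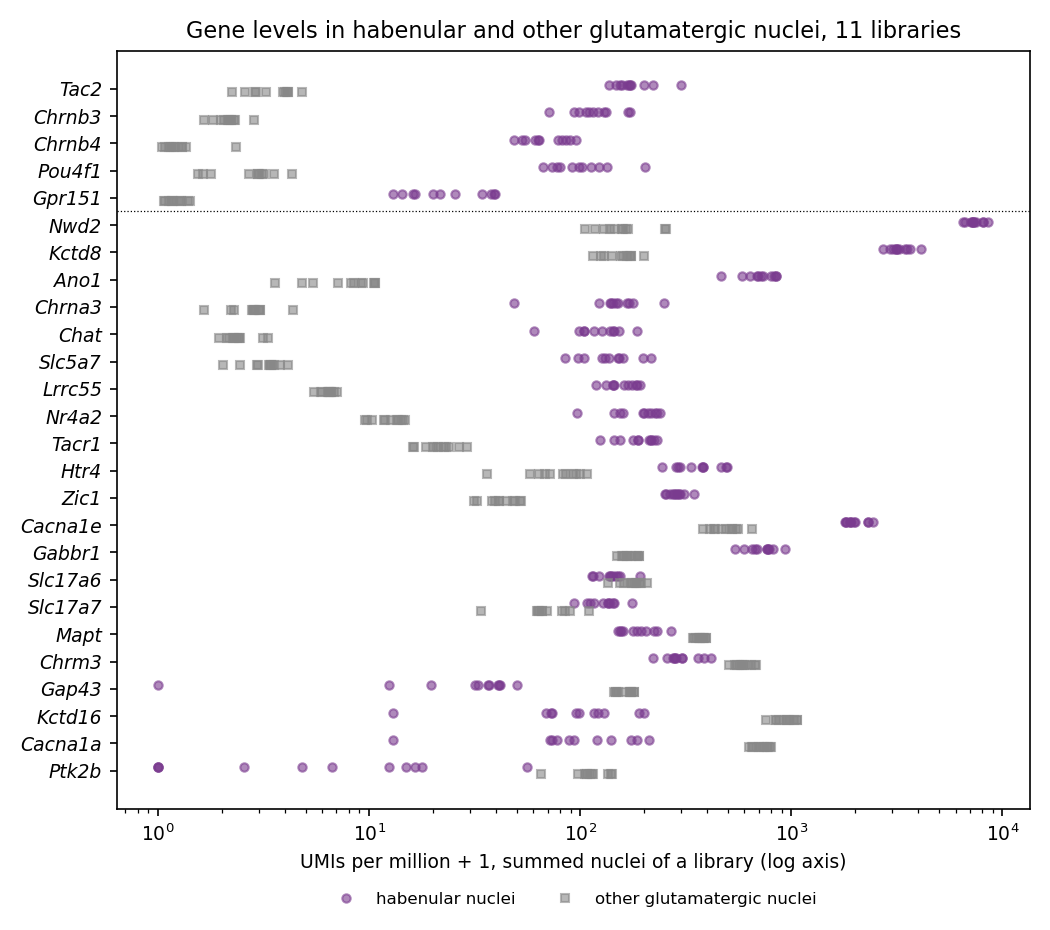
Level of the named genes, in CPM + 1 on a log axis, with 1 point for each of 11 libraries in habenular nuclei and in other glutamatergic nuclei. The 5 genes of the rule are set apart by the dotted line; Chrna3, Nwd2 and Kctd8, which the rule did not use, are also separated between the populations.

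The 596 nuclei fell into 9 clusters, called here by their leading gene. The genes given for a cluster were used to form it and are a description. Most nuclei held Chat in the Piezo2 cluster (82 nuclei, 78.0%), the Smoc1 cluster (73, 79.5%), the Sema3c cluster (82, 74.4%) and the Sned1 cluster (67, 55.2%), and in the Nhsl1 cluster of 12 nuclei (58.3%) described further on. The Sned1 cluster was led next by Htr4, found in 97.0% of its nuclei, and the Sema3c cluster had the growth factor genes Fgf1 and Fgf10 among its leading genes. The Pde11a cluster was the largest, with 122 nuclei. It held Tac1 in 56.6% of nuclei against 6.96% of the other habenular nuclei, Chat in none and Chrna3 in 9.8%, while Tac2 was found in 93.4% and Oprm1 in 77.0%. The Col5a3 cluster (62 nuclei) held Oprm1 in 87.1%, Htr5b in 67.7% and Gpr151 in 40.3%.

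The Chrm2 cluster (31 nuclei, 5.20%) was the only one past the limit of 1 for the mean log2 ratio of the lateral list, by which a cluster was called lateral habenula-like here. Its nuclei held the serotonin receptor gene Htr2c in 100% and the muscarinic receptor gene Chrm2 in 51.6%, with Pou4f1 in 93.5% and Gpr151 in 64.5%, and none held Chat, Slc5a7 or Chrna3. The mean log2 ratio of the lateral list to the other habenular nuclei was 1.74 in this cluster and 0.87 in the Grm7 cluster, the next highest, and it was below 0 in the other 7. The list holds the rule gene Gpr151, at 104 CPM in the Chrm2 cluster and 6.54 in the Grm7 cluster, and the limit was not applied without it. Htr2c, Pcdh10 and Gap43 stood higher in the Chrm2 cluster. Chrm3 (378 against 487 CPM) and Vgf (3.47 against 11.2) stood higher in the Grm7 cluster. Both habenular nuclei of replicate 9 of the 3xTg-AD mice at 6 months fell in the Chrm2 cluster.

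Another 2 clusters carried genes of other cells. The Grm7 cluster (65 nuclei, 10.9%) was led by Grm7, a metabotropic glutamate receptor gene, Arpp21, Fstl4, Tshz2 and Kctd16. All 10 of its leading genes are among the 217 genes with a mean log2 ratio of −2 or less, and lower in each library, in habenular against other glutamatergic nuclei. The mean log2 ratio of the thalamic list was 1.55 in this cluster. Its median nucleus held 15250 UMIs, and Scrublet marked 13 of its 65 nuclei (20.0%) as doublets. The Nhsl1 cluster (12 nuclei) was led by astrocyte genes, with the glutamate transporter gene Slc1a2 in 100%, and 3 of its nuclei were marked as doublets. The part that mixed droplets had in these clusters was not tested, and the genes described at 12 months that rest mainly on them are given with and without them.

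**Figure D2:**
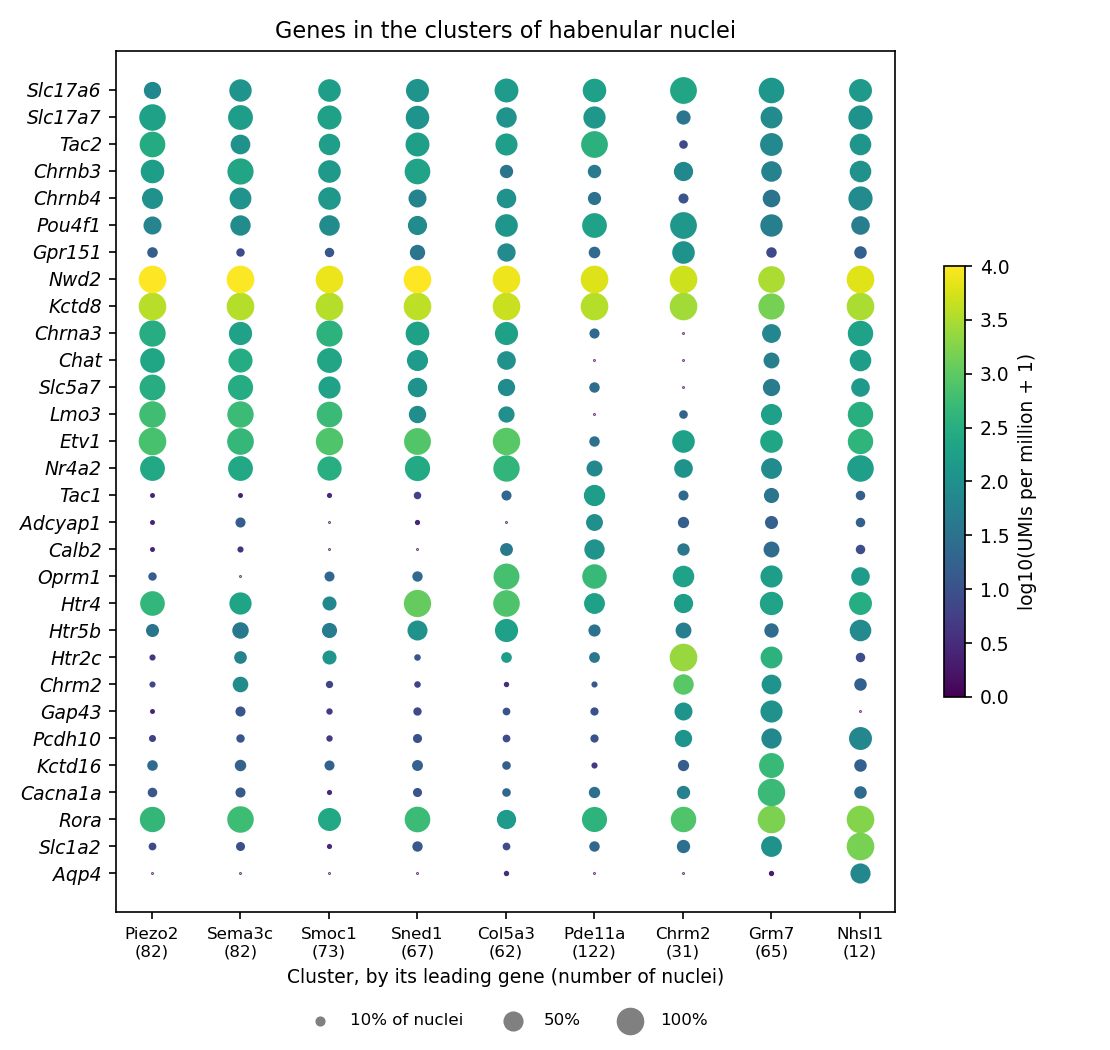
Share of nuclei with a UMI (point size) and level (colour, log scale) of named genes in the 9 clusters of habenular nuclei. Chat was found in most nuclei of the Piezo2, Sema3c, Smoc1 and Sned1 clusters and in none of the Pde11a and Chrm2 clusters, Tac1 in 56.6% of the Pde11a cluster and Htr2c in 100% of the Chrm2 cluster.

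The first comparison between mice asks whether the share of habenular nuclei differed with genotype or age. Habenular nuclei made up 0.437%, 0.413% and 0.234% of nuclei in WT at 6 months and 0.409%, 0.0632% and 0.0112% in 3xTg-AD at 6 months (replicates 1, 5 and 9). At 12 months they made up 0.455%, 0.325% and 0.502% in WT and 0.345%, 0.293% and 0.454% in 3xTg-AD. The groups overlapped at both ages. Replicates 5 and 9 of the 3xTg-AD mice at 6 months lay below the other 10 libraries, with Wilson 95% intervals of 0.0343% to 0.116% (10 nuclei) and 0.00307% to 0.0408% (2 nuclei), while the next lowest library, with 37 nuclei, had an interval of 0.170% to 0.323%. These intervals cover counting error only.

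Group means were 0.362% ± 0.111 in WT and 0.161% ± 0.217 in 3xTg-AD at 6 months (SD, n = 3 each), a difference of −0.200 percentage points (exact permutation test, two-sided, p = 0.2, adjusted p = 0.469 over 8 tests). At 12 months they were 0.427% ± 0.0917 and 0.364% ± 0.0824, a difference of −0.0632 (exact permutation p = 0.4, adjusted p = 0.469). As a share of glutamatergic nuclei the difference at 12 months turned to 0.173 percentage points, with 1.86%, 1.48% and 1.75% in WT and 1.69%, 1.60% and 2.32% in 3xTg-AD. With 3 against 3 the smallest p is 0.1. The share was 0.261% ± 0.189 over the 6 libraries at 6 months and 0.396% ± 0.0853 over those at 12 months (exact permutation within genotype, p = 0.135, adjusted p = 0.469), and the genotype difference changed by 0.137 with age (p = 0.41 by exact permutation). None passed the threshold. In the same libraries the share of nuclei with thalamic genes ran from 6.52% to 13.4%, and replicates 5 and 9, at 9.98% and 9.95%, lay inside this range. How much of the tissue beside the hippocampus each dissection took and the number of habenular neurons in the mouse cannot be told apart here.

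**Figure D3:**
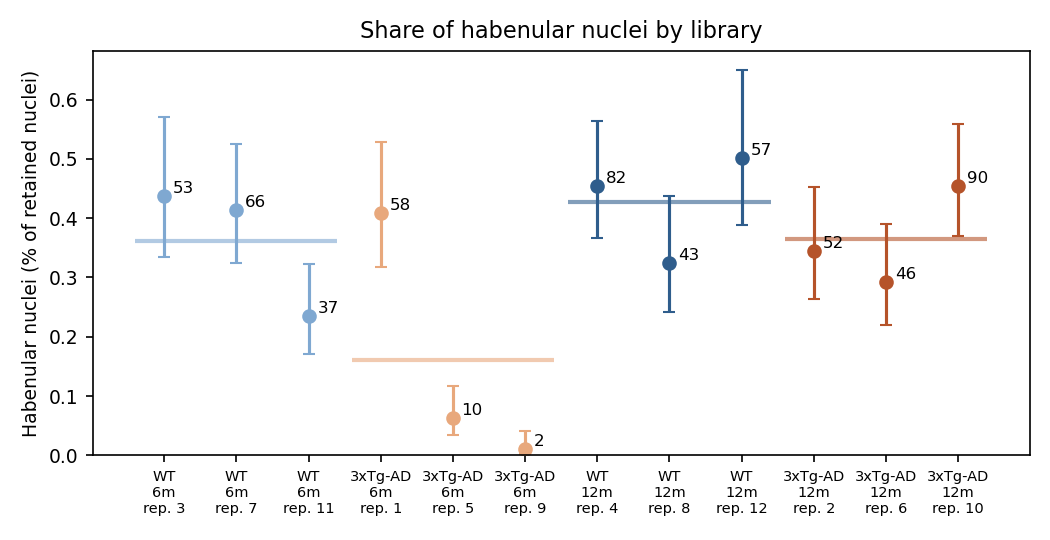
Habenular nuclei as a percentage of retained nuclei in each of the 12 libraries, by group, with Wilson 95% intervals; horizontal lines are group means and the numbers beside the points count habenular nuclei. The other 10 libraries lie at 0.234% or above, and replicates 5 and 9 of the 3xTg-AD mice at 6 months lie at 0.0632% and 0.0112%.

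The cluster makeup was compared over the 11 libraries with at least 10 habenular nuclei. The lateral habenula-like cluster made up 4.18% ± 1.72 of habenular nuclei in WT and 1.72% ± 2.44 in 3xTg-AD (n = 2) at 6 months, and 4.51% ± 3.69 and 6.78% ± 4.12 at 12 months. The differences of −2.45 and 2.26 percentage points gave exact permutation p = 0.4 and p = 0.5. With 1 library left out they ran from −4.18 to −0.731 at 6 months and from −0.116 to 4.39 at 12 months, the direction turning without 3xTg-AD replicate 2. The Smoc1 cluster held 12.2%, 25.6% and 21.1% of habenular nuclei in WT at 12 months and 9.62%, 8.70% and 10.0% in 3xTg-AD, with no overlap. It was the only 1 of the 9 clusters whose shares of nuclei did not overlap at that age, and this difference was not tested. At 6 months it held 9.43%, 6.06% and 13.5% in WT and 13.8% and 0% in 3xTg-AD, with overlap. The Grm7 cluster held 9.76%, 4.65% and 5.26% of nuclei in WT at 12 months and 15.4%, 17.4% and 8.89% in 3xTg-AD, with overlap. It held 16.8%, 9.68% and 7.26% of UMIs in WT and 32.2%, 30.3% and 18.9% in 3xTg-AD, with no overlap. Some leading genes of these 2 clusters were called between genotypes at 12 months, as described below, so these shares are no separate measure. They were Smoc1 in the Smoc1 cluster and Grm7, Kctd16 and Cacna2d1 in the Grm7 cluster, and the other leading genes were not called. For the Grm7 cluster's share of nuclei the exact permutation test gave p = 0.2 at 12 months, p = 0.4 at 6 months, p = 0.955 with age and p = 0.06 for the interaction.

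**Figure D4:**
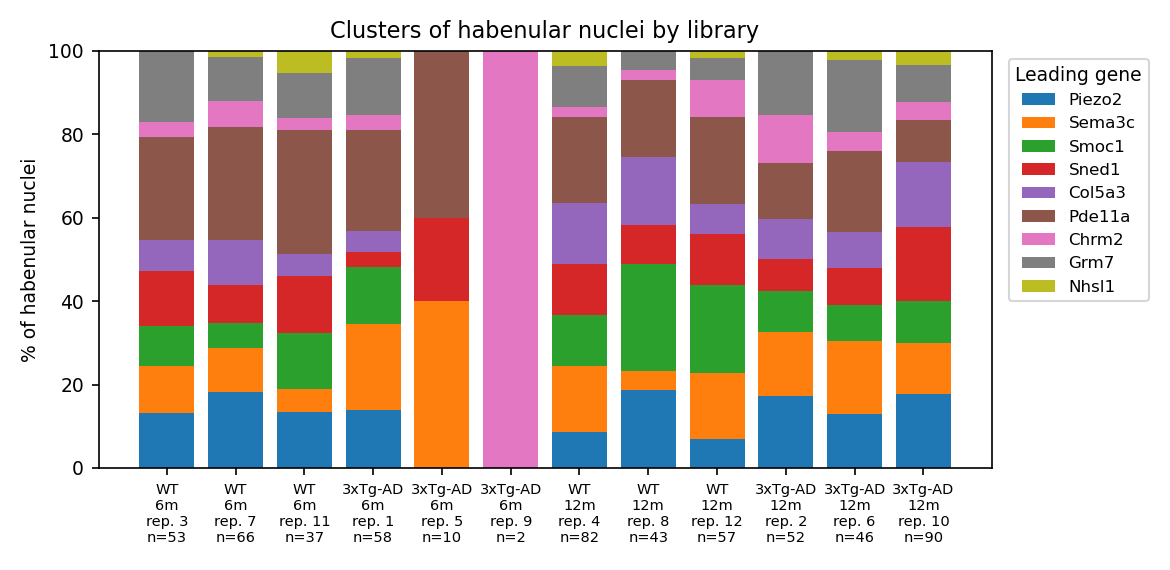
Share of each cluster among the habenular nuclei of each library, stacked to 100%, with the number of nuclei under each bar. The bars of replicates 5 and 9 of the 3xTg-AD mice at 6 months rest on 10 and 2 nuclei.

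Differential expression was tested on UMIs summed over the habenular nuclei of each library with edgeR's quasi-likelihood test. A gene was called at a Benjamini-Hochberg adjusted p (padj) under 0.05 and an absolute log2 fold change (log2FC) over 0.2. At 12 months, 27 genes rose and 4 fell in 3xTg-AD among 6834 tested, which is 0.454% of genes (0.395% higher, 0.0585% lower). With 1 library left out the count ran from 6 to 81, with 6 without WT replicate 12, 7 without 3xTg-AD replicate 6, 20 without WT replicate 8 and 81 without 3xTg-AD replicate 10. The levels of all 31 called genes did not overlap between the genotypes. Because the genes were picked by a test on these same libraries, this adds no support. The share without overlap over all tested genes was not counted. At an unadjusted p under 0.05, 7.26% of genes passed.

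Grm7, the gene with the smallest padj, stood at 167, 123 and 84.1 CPM in WT at 12 months and at 708, 584 and 476 in 3xTg-AD (log2FC 2.21 ± 0.23 (SE), edgeR padj = 0.000158). Of its UMIs at 12 months, 95% came from the Grm7 cluster, which held 19.0% of all UMIs. Without the 2 mixed clusters its levels overlapped, at 31.5, 27.1 and 10.5 in WT and 22.8, 14.1 and 22.1 in 3xTg-AD, and it was not tested there because its counts were too low.

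In 20 of the 27 genes that rose, more than 50% of the UMIs at 12 months came from the Grm7 cluster, and 25 of the 27 stood lower in habenular than in other glutamatergic nuclei. The share of all tested genes with more than 50% from that cluster was not counted. Of the 3971 genes at 50 CPM or more in either population, 1797 had a mean log2 ratio above 0. Among the 27 genes, 9 kept the genotypes apart without the 2 mixed clusters, as did all 4 that fell. The share of all genes apart in that setting was not counted, and the genes were picked on these same libraries, so these counts add no support. Without the 2 mixed clusters the libraries of the 2 genotypes overlapped for 17 of these 20 genes and stayed apart for Cacna2d1, Galnt18 and Hs6st3, the last, a sulfotransferase gene named after its values were seen, at 164, 64.5 and 78.0 CPM in WT and 247, 233 and 187 in 3xTg-AD. Kalrn, a guanine nucleotide exchange factor gene, stood at 110, 104 and 118 CPM in WT and 291, 266 and 238 in 3xTg-AD (log2FC 1.25 ± 0.16, edgeR padj = 0.00124), with 86.9% of UMIs from that cluster. Rbfox1, a splicing factor gene, stood at 890, 622 and 736 in WT and 1515, 2020 and 1372 in 3xTg-AD (log2FC 1.12 ± 0.18, edgeR padj = 0.00777), with 77.8% from the cluster. Cacna2d1, a calcium channel subunit gene, rose with 92.7% of its UMIs from it (log2FC 2.03 ± 0.33, edgeR padj = 0.00895). Without the mixed clusters it stood at 5.91, 10.2 and 10.5 in WT and 19.5, 24.7 and 13.6 in 3xTg-AD. Galnt18, a glycosyltransferase gene, and 9530059O14Rik rose with log2FC of 2.64 ± 0.41 and 2.30 ± 0.40 (edgeR padj = 0.00609 and 0.0165). Without the mixed clusters Galnt18 stood at 1.97, 0 and 6.32 in WT and 6.51, 7.06 and 23.8 in 3xTg-AD, and 9530059O14Rik at 5.91, 10.2 and 0 in WT and 6.51, 14.1 and 35.7 in 3xTg-AD, with overlap. Tox3, an HMG-box factor gene, stood at 7.73, 3.06 and 13.4 in WT and 64.0, 74.2 and 66.9 in 3xTg-AD (log2FC 2.95 ± 0.35, edgeR padj = 0.000621), with 49.6% of its UMIs from the cluster. Without the mixed clusters its levels stayed apart, at 3.94, 0 and 12.6 in WT and 22.8, 56.4 and 54.4 in 3xTg-AD. Cacna2d1, Galnt18 and Tox3 were not tested there because their counts were too low.

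Among the genes that rested less on that cluster, Gm15594 stood at 10.8, 15.3 and 13.4 CPM in WT at 12 months and at 61.8, 98.1 and 68.2 in 3xTg-AD (log2FC 2.54 ± 0.31, edgeR padj = 0.000754). It also rose in the other glutamatergic nuclei of 3xTg-AD (log2FC 2.34, edgeR padj = 0.000154). At 6 months Gm15594 stood at 11.7, 70.7 and 28.0 in WT and 56.4 and 155 in 3xTg-AD, with overlap. In the other glutamatergic nuclei WT replicate 7 was then at 51.0, against 14.4 and 16.6 in replicates 3 and 11. Ubash3b, a phosphatase gene, stood at 15.5, 0 and 7.64 in WT at 12 months and 79.4, 83.8 and 51.5 in 3xTg-AD (log2FC 2.88 ± 0.44, edgeR padj = 0.00609). At 6 months Ubash3b stood at 68.7, 57.3 and 14.0 in WT and 58.3 and 214 in 3xTg-AD, which overlapped the 3xTg-AD values at 12 months in both genotypes. It had a log2FC of 0.36 (edgeR padj = 0.324) at 12 months in the other glutamatergic nuclei. Nrg1, the neuregulin 1 gene, stood at 1325, 1165 and 1398 in WT and 2298, 2295 and 2195 in 3xTg-AD (log2FC 0.81 ± 0.14, edgeR padj = 0.0106). Whether these changes differed between the populations was not tested.

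The 4 genes that fell were Rnf150, Samd11, Smoc1 and Thyn1. Rnf150, a RING finger gene, stood at 215, 166 and 201 CPM in WT at 12 months and 94.8, 86.2 and 86.2 in 3xTg-AD (log2FC −1.14 ± 0.18, edgeR padj = 0.00763), while the other glutamatergic nuclei had a log2FC of −0.06 (edgeR padj = 0.866). Samd11 stood at 60.3, 55.2 and 30.6 in WT and 8.82, 16.8 and 10.3 in 3xTg-AD (log2FC −2.05 ± 0.39, edgeR padj = 0.0240), and it also fell in the other glutamatergic nuclei of 3xTg-AD (log2FC −1.80, edgeR padj = 0.00227). Smoc1, a secreted matrix protein gene and the leading gene of its cluster, stood at 113, 147 and 136 in WT and 75.0, 55.1 and 68.2 in 3xTg-AD (log2FC −0.96 ± 0.19, edgeR padj = 0.0301). Thyn1 stood at 38.6, 42.9 and 57.3 in WT and 15.4, 14.4 and 18.0 in 3xTg-AD (log2FC −1.49 ± 0.31, edgeR padj = 0.0469). In the other glutamatergic nuclei at 12 months Thyn1 was also lower without overlap, at 23.2, 31.6 and 38.6 in WT and 17.1, 18.0 and 19.0 in 3xTg-AD. At 6 months Rnf150 stood at 231, 76.5 and 94.6 in WT and 118 and 47.6 in 3xTg-AD, with overlap. Thyn1 then stood at 21.8, 11.5 and 14.0 in WT and 22.6 and 0 in 3xTg-AD, also with overlap. At that age Smoc1 overlapped too, and Samd11 was lower in 3xTg-AD without overlap. The fall of Thyn1 lost its call in 10 of 13 alternatives, that of Smoc1 in 8 of 14, that of Samd11 in 6 of 13 and that of Rnf150 in 4 of 14, with no change of direction. Among the genes that rose, Nrg1 lost its call in 5 of 14 and Rbfox1 in 5 of 14, with 1 more reversed, Cacna2d1 in 4 of 13, Kalrn in 3 of 14, 9530059O14Rik in 3 of 12, Ubash3b in 2 of 13 and Grm7 in 1 of 13, while Gm15594, Galnt18 and Tox3 kept theirs in each alternative in which they were tested.

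With the Grm7 and Nhsl1 clusters left out, a choice made after seeing the data, 5 genes were called at 12 months. Gm15594 (log2FC 2.62 ± 0.36, edgeR padj = 0.000687), Ubash3b (3.81 ± 0.53, padj = 0.000721) and Rnf150 (−1.80 ± 0.21, padj = 0.000133) kept their call. Grik4, a kainate receptor subunit gene (−1.22 ± 0.22, edgeR padj = 0.0179), and Kirrel3, a cell adhesion gene (−1.21 ± 0.23, padj = 0.0329), were called there and not over all habenular nuclei; both were named after their values were seen. Rbfox1 turned to −0.29 (edgeR padj = 0.966) and Kalrn to 0.10 (padj = 0.987), while Nrg1 at 0.75 (padj = 0.0526) and Samd11 at −1.99 (padj = 0.0579) kept their direction without a call. With at least 3 of the 5 marker genes asked of a nucleus, 0 genes were called at 12 months.

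**Figure D5:**
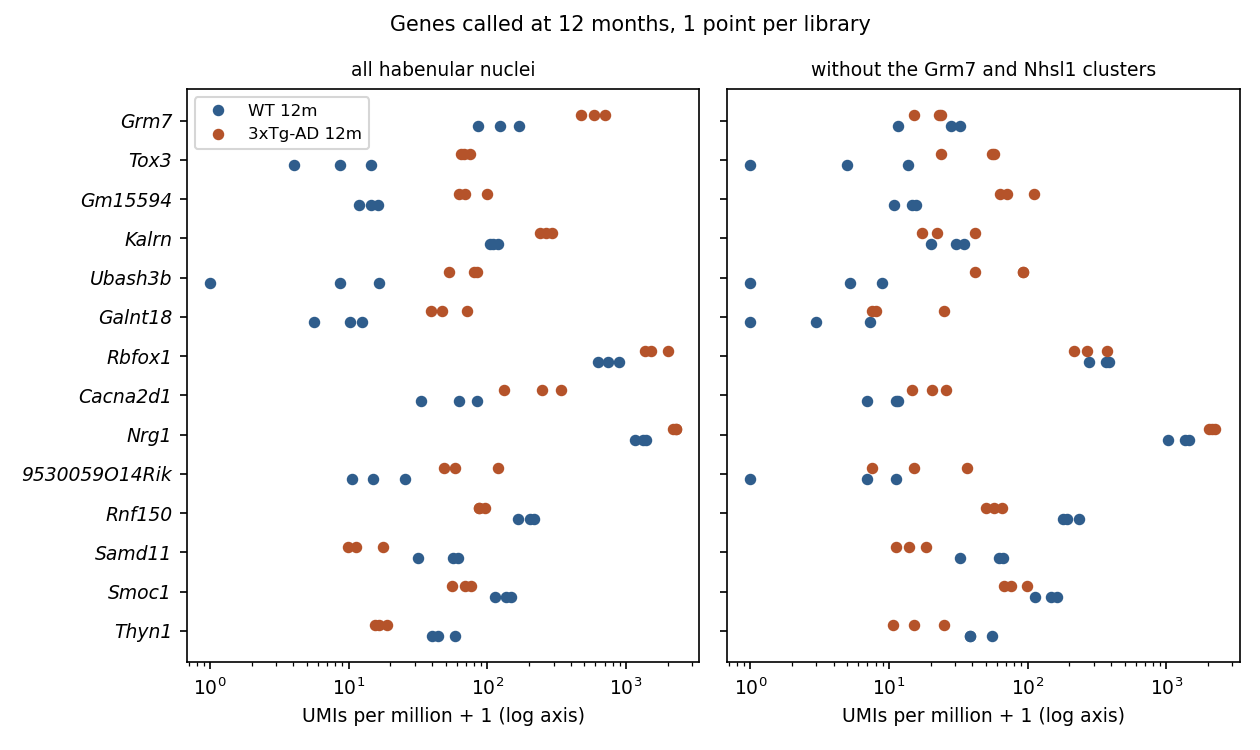
Level of the named genes called at 12 months, in CPM + 1 on a log axis, with 1 point per library, over all habenular nuclei and without the Grm7 and Nhsl1 clusters. Grm7 separates the genotypes on the left and overlaps on the right; Gm15594, Ubash3b and Rnf150 separate on both sides.

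The listed genes that mark or equip habenular neurons are few beside the 0.454% of all genes called at 12 months, so a count of 0 in a list of this size says nothing about the list. Of the 10 habenular genes outside the rule that were tested, 0 were called, with a median log2FC of −0.07 against 0.00 over all genes tested. The 5 rule genes picked the nuclei and are not compared on their own. The genes of acetylcholine handling (3 tested, median 0.03) held no call, nor did the 4 nicotinic subunit genes tested, which include the rule genes Chrnb3 and Chrnb4. None of the 9 transcription factor genes tested, which include the rule gene Pou4f1, was called. Of the 4 GABA-B receptor genes tested, Kctd16 rose (log2FC 1.13 ± 0.21, edgeR padj = 0.0226), with 92.2% of its UMIs from the Grm7 cluster. Without the mixed clusters Kctd16 stood at 5.91, 17.0 and 10.5 CPM in WT and 19.5, 3.53 and 15.3 in 3xTg-AD, with overlap, and was not tested for low counts. Of the 10 pacemaker and calcium channel genes listed and tested none was called; the list does not hold Cacna2d1, the auxiliary subunit gene that rose.

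The mouse genes that correspond to the transgenes were read from the mouse reference, to which human transgene reads count only where they align. App stood at 553, 647 and 590 CPM in WT at 12 months and at 510, 553 and 628 in 3xTg-AD (log2FC −0.06, edgeR padj = 0.965). Mapt, the tau gene, stood at 204, 224 and 178 in WT and 150, 158 and 153 in 3xTg-AD, with no overlap but no call (log2FC −0.38, edgeR padj = 0.580).

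At 6 months the test used 5 libraries, because replicate 9 of the 3xTg-AD mice was left out. Among 7533 genes tested, 0 were called (0% of genes) by edgeR, with a smallest padj of 0.338, and DESeq2 also called 0. At an unadjusted p under 0.05, 376 genes passed (4.99%). On data simulated for this comparison, 48.9% of 4-fold changes and 3.2% of 2-fold changes were recovered, so differences of these sizes could be missed at this depth. The simulation assumed a fixed dispersion and the same mean profile in each library, so recovery in the real libraries may differ. The 3xTg-AD group held replicate 5 with 10 nuclei, of which 4 fell in the Pde11a cluster, 4 in the Sema3c cluster and 2 in the Sned1 cluster. Grm7 stood at 507, 413 and 567 CPM in WT at 6 months and at 259 and 0 in 3xTg-AD (log2FC −1.36, edgeR padj = 0.956). The Grm7 cluster held 28.1%, 23.5% and 23.9% of the UMIs of these WT libraries and 21.4% and 0% of the 3xTg-AD ones.

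Between 6 and 12 months, over both genotypes, 1 of 8475 genes tested was called (0.0118%), and 4.8% passed an unadjusted p of 0.05. Adamtsl1, an extracellular matrix gene, fell with a log2FC of −2.24 ± 0.35 (edgeR padj = 0.0231), a call lost in 5 of 16 alternatives. It stood at 131, 65.0 and 38.5 CPM in WT and 33.8 and 47.6 in 3xTg-AD at 6 months, and at 17.0, 12.3 and 11.5 in WT and 4.41, 7.18 and 16.7 in 3xTg-AD at 12 months, with no overlap between ages. Without the 2 mixed clusters it stood at 11.6, 10.2 and 4.93 in WT at 6 months and at 13.8, 10.2 and 12.6 in WT at 12 months, with overlap between ages. In 3xTg-AD it then stood at 9.96 and 47.6 at 6 months and at 0, 7.06 and 3.40 at 12 months, with no overlap. It was not tested there for low counts. No habenular gene outside the rule and no nicotinic gene listed was called with age.

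The change of the genotype difference with age was tested as an interaction, and 2 of 8475 genes were called, both higher (0.0236%), while 6.65% passed an unadjusted p of 0.05. These were Grm7 (log2 interaction 3.55 ± 0.52, edgeR padj = 0.00619) and 9530059O14Rik (3.96 ± 0.69, padj = 0.0393). For 9530059O14Rik the levels were 83.7, 44.0 and 73.5 CPM in WT and 24.4 and 0 in 3xTg-AD at 6 months, and 13.9, 24.5 and 9.55 in WT and 119, 47.9 and 57.9 in 3xTg-AD at 12 months. The call of Grm7 was lost in 3 of 18 alternatives and that of 9530059O14Rik in 5 of 16. Without the 2 mixed clusters the interaction of Grm7 was 0.56 on the log2 scale and was not called, and 9530059O14Rik was not tested for low counts. These tests set a difference against the spread between libraries, with 1 library per mouse. Differences between mice and the sampling of few nuclei are not separated in that spread.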

How the data were processed

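Nuclei of the left hippocampus of 12 mice were sorted and captured with the 10x 3′ v3 chemistry, 1 library per mouse. The authors aligned reads to mm10 with Cell Ranger 6.1.1, and the deposited values are raw UMI counts per gene and nucleus, not normalized. Per the methods, ambient RNA was removed by the study at a later step; because the deposited values are whole counts they were taken as made before it, which the sources used here do not state. Doublets were not taken as removed.

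Of 185643 deposited nuclei, 184957 with 500 to 10000 genes were retained and the marker rule applied to their counts. The members and gene lists were chosen with earlier results of these data known. Doublets were marked per library with Scrublet in scanpy 1.11.5 at an expected share of 8% and kept. Members were clustered with Leiden at resolution 0.5 on 2000 variable genes, 30 components and 15 neighbours, after scaling each nucleus to 10000 UMIs. Clusters were named by the leading gene, and "lateral habenula-like" was used where the lateral list had a mean log2 ratio of at least 1. Thalamic nuclei were other glutamatergic nuclei with at least 1 UMI of Slc17a6 and at least 3 of 8 thalamic genes. Oligodendrocyte nuclei held at least 5 UMIs of Mobp and inhibitory nuclei at least 2 of Gad1 and Gad2, both with no UMI of Slc17a6 or Slc17a7.

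Counts were summed per library and expressed as CPM, per 1000000 UMIs of that sum. Ratios to other glutamatergic nuclei used log2(CPM + 5). Sums from libraries with at least 10 members were fitted with edgeR 4.0.16 (TMM, filterByExpr, quasi-likelihood test) in R 4.3.3, each age alone for genotype and both ages for age (genotype as a covariate) and the interaction. On simulated data 85.1% of 4-fold and 14.1% of 2-fold changes at 12 months were recovered, and 13.3% of 4-fold interactions. The simulated counts had an assumed, fixed dispersion and the same mean profile in each library. Recovery was counted among the changed genes that were tested. Shares were compared by exact permutation over libraries with scipy 1.17.1. DESeq2 1.42.0, other normalization and filters, stricter marker and nucleus minimums, removal of marked doublets and each library left out were alternatives. Gene positions are from GENCODE vM21 on GRCm38, which the reference used here carries.

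Named genes were the listed genes, the called genes of smallest padj (at most 10 higher and 10 lower), the 30 genes with the largest ratio to other glutamatergic nuclei, and 10 leading genes per cluster. Only those that carry a result are given with values. A cluster's leading genes had the largest ratio among genes found in at least 25% of its nuclei. Some items are not reported here.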

Additional observations from a re-analysis of the deposited data

Results flagged for a closer look

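Grm7 and 9530059O14Rik are listed because their genotype difference changed between ages by a direct test of that change. The log2 interaction of Grm7 was 3.55 and that of 9530059O14Rik was 3.96, from edgeR's quasi-likelihood test over 11 libraries. For both genes the WT libraries were the higher ones at 6 months and the 3xTg-AD libraries at 12 months, without overlap at either age. Because the genes were picked by a test on these same libraries, this adds no support. The 3xTg-AD group at 6 months held 2 libraries, and replicate 5 among them had 0 nuclei in the Grm7 cluster. At 12 months 95% of the UMIs of Grm7 and 76.6% of those of 9530059O14Rik came from the Grm7 cluster of 65 nuclei, in which Scrublet marked 20.0% as doublets. Without the 2 mixed clusters the interaction of Grm7 was not called, and 9530059O14Rik was not tested for low counts. Neither gene was called in the other glutamatergic nuclei at 12 months (log2FC 0.13 and 0.30). With a library left out, the interaction of Grm7 ran from 3.11 to 13.0 and that of 9530059O14Rik from 3.5 to 10.2, the upper values from fits in which the remaining 3xTg-AD library at 6 months held no UMI of the gene, so that the fitted size depends on the prior count.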

How the results depend on the processing

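No paired analysis was possible because the groups share no replicate numbers. Of 58 alternatives to a comparison other than leaving out a library, 40 were counted as unchanged, 16 as moved and 2 as reversed. For shares, unchanged meant the same direction and the same side of the p threshold, so the size of the difference could still shift. With 3 against 3 libraries the smallest p is 0.1, so only a change of direction could count there. The number of genes called at 6 months was 22 without a filter on low counts, 9 with at least 3 marker genes (4 libraries) and 5 with at least 30 nuclei per library, both with replicate 1 as the only 3xTg-AD library, assumed to vary like the others, and leaving out 1 library gave 0 to 161, the highest without replicate 1 of the 3xTg-AD mice, which leaves replicate 5 alone in its group, assumed to vary like the others. At 12 months the count was 156 without the filter, 0 with at least 3 marker genes, 12 with all libraries in 1 fit and 5 without the 2 mixed clusters, an alternative chosen after seeing the data; leaving out 1 library gave 6 to 81 (6 without WT replicate 12, 7 without 3xTg-AD replicate 6, 20 without WT replicate 8 and 81 without 3xTg-AD replicate 10). With age it was 38 without the filter, 2 with DESeq2, 0 with at least 3 marker genes and 0 without the mixed clusters, and 0 to 2 with a library left out. For the interaction it was 105, 5, 0 and 0 under these settings, 4 with at least 30 nuclei, and 1 to 60 with a library left out (60 without replicate 1 of the 3xTg-AD mice at 6 months). The fall in the habenular share at 12 months turned to 0.173 percentage points as a share of glutamatergic nuclei, and the relation of habenular and thalamic shares turned to r = −0.179. Leaving out a library gave differences in share of −0.324 to −0.125 at 6 months, −0.114 to −0.0257 at 12 months, 0.0843 to 0.169 with age and 0.0620 to 0.261 for the interaction. For the lateral habenula-like cluster these ranges were −4.18 to −0.731, −0.116 to 4.39 (below 0 without 3xTg-AD replicate 2), 1.27 to 3.16 and 2.34 to 6.85. Rbfox1 turned to −0.29 without the mixed clusters. Thinning to 2000 UMIs left 85 members. The cause of these shifts was not tested. Members numbered 2 to 90 per library, and simulated 2-fold changes were recovered in 3.2% (6 months), 14.1% (12 months), 24.2% (age) and 2.0% (interaction) of genes.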

Other observations

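The share of habenular nuclei was set beside the share of thalamic nuclei, another cell type from next to the hippocampus, over the 12 libraries. Pearson's r was 0.271 (permutation p = 0.391) and Spearman's rho 0.448 (permutation p = 0.146), and without the 2 libraries farthest from the median thalamic share r was 0.291 (permutation p = 0.411). Within 6 months r was 0.317 (exact permutation p = 0.521, n = 6) and within 12 months 0.710 (exact permutation p = 0.138, n = 6). As shares of glutamatergic nuclei the relation turned to r = −0.179 (permutation p = 0.546). None of these passed the threshold. In the nuclei that held exactly 1 of the 5 marker genes and were left out, Chrna3 was found in 11.6% and Chat in 7.4%, against 56.2% and 45.6% in habenular nuclei and 1.17% and 0.795% in other glutamatergic nuclei.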
